A study of Mus musculus with 6 samples.

Results

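The genes of tumour necrosis factor (TNF) receptor signalling were compared between bone marrow-derived macrophages of GPS2KO mice, which carry a Gps2 knockout, and of wild-type (WT) mice. The core of the pathway was taken as 10 named genes: the cytokine Tnf, its receptors Tnfrsf1a and Tnfrsf1b, the adaptors and kinase at the receptor (Tradd, Traf1, Traf2, Ripk1), the ubiquitin ligases Birc2 and Birc3, and the inhibitor Tnfaip3. Each gene was represented by the probe set that named it alone, and 9 of the 10 had one, among 18820 genes tested in all. Ripk1 was not analysed here. None of the 9 had a second probe set of its own, and none was dim, which here means a mean signal under 5.49 on the log2 scale, the 40th percentile of the tested genes.

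Both groups held 3 male samples, from mice of about 12 to 16 weeks, with 1 Affymetrix array each. Marrow cells were grown for 7 days in medium with 30% supernatant of L929, a fibroblast line that secretes macrophage growth factor, and no stimulus was given. The labels call the knockout KO or MKO and macrophage GPS2 KO, and give neither the deleted exons nor a Cre driver. They do not say whether the arrays came from different mice, and p-values therefore reflect how far these samples vary among themselves, which could be technical variation.

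TNF binds receptors at the cell surface. The receptor encoded by Tnfrsf1a recruits TRADD, RIPK1, TRAF2 and the cellular inhibitors of apoptosis cIAP1 and cIAP2 (Birc2 and Birc3), which build ubiquitin chains that serve as a platform for the kinases of NF-kappaB and JNK signalling. A20, the product of Tnfaip3, edits these chains and ends the signal, and it is itself induced by NF-kappaB. GPS2 is best known for its part in repressing genes in the nucleus, within the complex that holds NCoR and HDAC3, but a cytosolic pool is known to restrain the ubiquitination of TRAF2 through the ubiquitin-conjugating enzyme UBC13. Arrays measure RNA only, so ubiquitin chains and protein levels were not measured here. In RNA of a whole culture, fewer cells of a type and less RNA per cell cannot be told apart.

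Gps2 itself had log2 signals of 10.29, 10.16 and 10.19 on the GPS2KO arrays and of 10.94, 10.93 and 11.00 on the WT arrays, a GPS2KO signal at 59.7% of WT (adjusted p = 0.000256, limma). All 8 macrophage markers tested were above the dim limit, with a mean log2 signal between 12.06 and 12.08 in GPS2KO and between 11.98 and 12.01 in WT. Of these 8, Mertk and Itgam rose, by 0.24 and 0.19 on the log2 scale (25% called at an adjusted p under 0.05, against 6.72% of all tested genes). Markers of other cells were mostly dim, in 6 of 7 for T and NK cells, 4 of 5 for B cells, 6 of 7 for neutrophils and 4 of 6 for dendritic cells. The T cell marker and the B cell marker that were not dim both changed, Cd4 with a rise of 0.43 (adjusted p = 0.00142) and Cd79b with a fall of 0.46 (adjusted p = 0.00373). All other markers on these lists were dim and did not pass. Among them Cd3d, Cd3e and Cd3g differed by -0.099, -0.029 and -0.089, Cd8a by 0.086 and Cd79a by 0.11. Fibroblast and stromal markers were mostly not dim, with 7 of 8 above the limit. The mean log2 signal of the 8 ran from 9.37 to 9.45 in GPS2KO and from 9.37 to 9.46 in WT. That mean hides a spread from Lum, which was dim (4.16 in GPS2KO and 4.02 in WT), to Acta2 (13.00 and 13.05). The macrophage marker Adgre1 lay at 12.60 and 12.53. Of the 8 stromal markers 2 fell (Pdgfrb and Col1a1) and 1 rose (Dcn), 37.5% called, against 6.72% of all tested genes. The part of these markers in the results below was not tested.

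Within the core, Traf1 fell in the GPS2KO cultures to 59.2% of the WT signal, while Tnfaip3 rose 1.19-fold and Tnfrsf1b rose 1.14-fold. The remaining 6 genes, Tnf, Tnfrsf1a, Tradd, Traf2, Birc2 and Birc3, did not pass the threshold, an adjusted p under 0.05 in limma with Benjamini-Hochberg adjustment over all 18820 genes. Thus 3 of 9 genes (33.3%) passed, against 6.72% of all tested genes. Of the 9, 2 rose, against 2.9%, and 1 fell, against 3.83%. None of the 9 was dim, while 40% of all tested genes are dim by definition, so 6.72% is not a share of genes of like brightness. With dim genes left out, 4 of the 9 passed, and 1962 of all 11292 genes. The same limit applies to the lists below that hold few dim genes. The GPS2KO and WT arrays did not overlap for 5 of the 9, against 27.1% of all tested genes. The median change of the core was -0.059 on the log2 scale, and that of all tested genes was -0.0077. Without GPS2KO replicate 2 or without GPS2KO replicate 3, only Traf1 of the 9 passed.

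**Figure D1:**
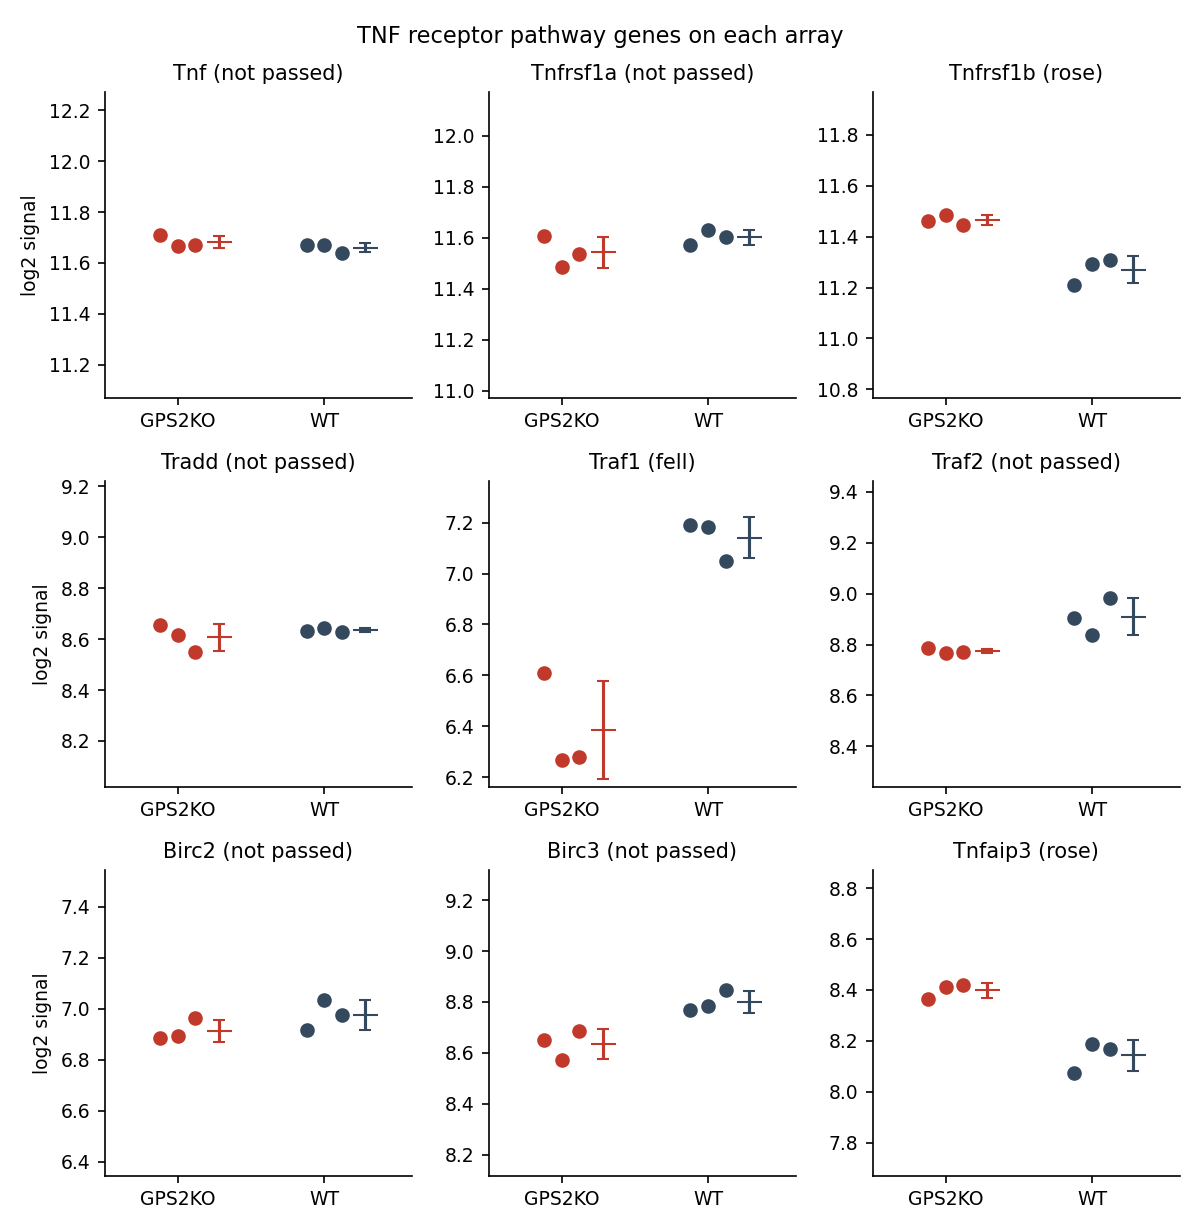
Log2 signal of the 9 tested genes of the TNF receptor core on each array (points; GPS2KO in red, WT in dark blue), with the mean and SD of 3 arrays beside them. Every vertical axis spans the same range of log2 units. The groups separate for Tnfrsf1b, Traf1, Traf2, Birc3 and Tnfaip3, and overlap for Tnf, Tnfrsf1a, Tradd and Birc2.

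Tnf encodes the cytokine that starts the pathway, and macrophages are a main source of it. Its log2 signal was 11.71, 11.67 and 11.67 on the GPS2KO arrays and 11.67, 11.67 and 11.64 on the WT arrays. The groups overlapped, with a difference of 0.023 (95% confidence interval -0.062 to 0.11; adjusted p = 0.779, limma). In the genome Tnf lies between the lymphotoxin genes Ltb and Lta. Of the 6 tested genes nearest to Tnf, 3 on each side, 2 fell: Ltb by 0.24 (adjusted p = 0.0273), a dim gene, and Aif1, which encodes an actin-binding protein of macrophages, by 0.51 (adjusted p = 0.00133). Counted in the same way around all 9 core genes, these were the calls among 50 tested neighbours (overlapping windows included), so 2 of 50 fell, near the 3.83% of all tested genes.

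Of 11 genes that govern how much TNF is made and released, 2 rose, 1 fell and 8 did not pass (27.3% called, against 6.72% of all tested genes), with a median change of -0.017. The falls numbered 4 after median centring and 5 under a variance trend or with dim genes left out, against 2 rises in each of these. Zfp36, whose product binds TNF mRNA and speeds its decay, rose by 0.23 (SE 0.043, adjusted p = 0.0214). Litaf, a factor of the endosome first described as an inducer of TNF, rose by 0.19 (adjusted p = 0.0313). Adam17, the protease that sheds TNF and its receptors from the cell surface, had log2 signals of 11.47, 11.51 and 11.47 in GPS2KO and of 11.71, 11.68 and 11.61 in WT, and fell by 0.18 (adjusted p = 0.0435). Rhbdf2 and Rhbdf1, the inactive rhomboids that carry ADAM17 to the surface, differed by -0.22 and -0.24 and did not pass (adjusted p = 0.0509 and 0.0634), although the groups did not overlap for either, and both passed as falls after median centring (adjusted p = 0.0305 and 0.0427). Mapkapk2, a kinase that stabilises TNF mRNA, differed by -0.13 (adjusted p = 0.0769) and passed as a fall in the same 3 settings (adjusted p from 0.00274 to 0.0434). All 3 calls of this group were fragile: Litaf lost its call without any 1 of the 6 arrays (adjusted p up to 0.101), Adam17 on leaving out any except WT replicate 3 (up to 0.132), and Zfp36 without GPS2KO replicates 1 or 3 or WT replicates 1 or 3 (up to 0.0784).

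Of the TNF receptors, Tnfrsf1b passed as a rise and Tnfrsf1a did not pass. The permutation test of the difference between them, given with the gene pairs below, could not pass, since its lowest possible p is 0.1. It therefore does not decide whether the receptor genes changed by unlike amounts. Tnfrsf1a encodes TNFR1, the widely expressed receptor that carries a death domain. It had log2 signals of 11.61, 11.48 and 11.54 in GPS2KO and of 11.57, 11.63 and 11.60 in WT, which overlap (difference -0.059, 95% confidence interval -0.16 to 0.045; adjusted p = 0.518). Tnfrsf1b encodes TNFR2, a receptor of immune cells that has no death domain and binds TRAF2 directly. Its signals were 11.46, 11.48 and 11.45 in GPS2KO and 11.21, 11.29 and 11.31 in WT. Every GPS2KO array lay above every WT array, and Tnfrsf1b rose by 0.19 (95% confidence interval 0.097 to 0.29, SE 0.042; limma adjusted p = 0.0349). That call is weak, since it ended without any 1 of the 6 arrays, at adjusted p between 0.06 and 0.119.

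Among the proteins that dock on the receptors, Traf1 alone passed the threshold in GPS2KO. TRAF1 binds TRAF2 and the cIAPs, lacks the RING finger of the other TRAF proteins, and is induced by NF-kappaB. Its log2 signal was 6.61, 6.27 and 6.28 on the GPS2KO arrays and 7.19, 7.18 and 7.05 on the WT arrays. GPS2KO replicate 1 lay highest in its group, yet below every WT array. Traf1 fell by 0.76 (95% confidence interval -0.97 to -0.54, SE 0.094; limma adjusted p = 0.00354), a 1.69-fold fall whose size exceeds that of 99.6% of the tested genes. It passed under all 12 alternative settings tried, at adjusted p from 0.000109 to 0.0204. Among these, means over probe sets could not alter its values, since Traf1 has 1 probe set.

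Traf2 encodes the adaptor whose ubiquitination GPS2 is known to restrain. Its log2 signal was 8.79, 8.77 and 8.77 in GPS2KO and 8.91, 8.84 and 8.98 in WT. All GPS2KO arrays lay below all WT arrays, but the difference of -0.13 (95% confidence interval -0.24 to -0.027) did not pass (adjusted p = 0.147, limma), nor did it under any of the 12 alternatives. Tradd, the adaptor between TNFR1 and TRAF2, had signals of 8.66, 8.62 and 8.55 in GPS2KO and of 8.63, 8.64 and 8.63 in WT (difference -0.027, 95% confidence interval -0.12 to 0.069; adjusted p = 0.768). For Tradd the groups overlapped.

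Birc2 and Birc3, neighbours on chromosome 9, encode cIAP1 and cIAP2, the RING ligases that ubiquitinate RIPK1. Birc2 had log2 signals of 6.88, 6.89 and 6.96 in GPS2KO and of 6.92, 7.04 and 6.97 in WT, which overlap (difference -0.062, 95% confidence interval -0.17 to 0.045; adjusted p = 0.506). Birc3, the cIAP gene that NF-kappaB induces, had signals of 8.65, 8.57 and 8.69 in GPS2KO and of 8.77, 8.78 and 8.85 in WT. The groups did not overlap, yet the difference of -0.16 (95% confidence interval -0.27 to -0.057) missed the threshold (adjusted p = 0.0821, limma). Birc3 passed as a fall with dim genes left out (adjusted p = 0.0363), under a variance trend (0.0409) and after each array was centred on its median (0.0469).

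Tnfaip3 moved the other way from Traf1. Its log2 signal was 8.36, 8.41 and 8.42 on the GPS2KO arrays and 8.07, 8.19 and 8.17 on the WT arrays, with no overlap. Tnfaip3 rose by 0.26 (95% confidence interval 0.15 to 0.36, SE 0.045; limma adjusted p = 0.0151), a change larger than that of 94.6% of the tested genes. The call ended without GPS2KO replicate 2 or 3, at adjusted p = 0.0609 and 0.0622.

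**Figure D2:**
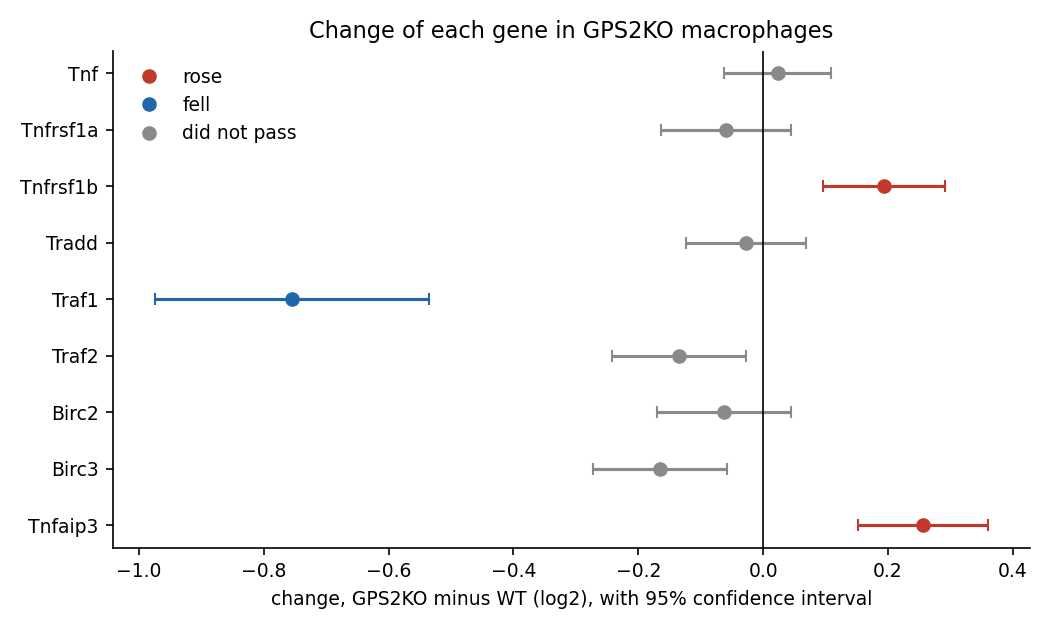
Change of each tested gene of the TNF receptor core, as GPS2KO minus WT on the log2 scale (points), with limma's 95% confidence interval (bars). Traf1 stands apart at -0.76, Tnfaip3 and Tnfrsf1b lie above 0, and the other genes lie between -0.16 and 0.023.

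A20 acts with adaptor proteins that bring it to ubiquitin chains, and of these Tnip1 and Tnip3 fell, while Tnip2, Tax1bp1, Itch and Rnf11 did not pass. Tnip1 (ABIN1), a ubiquitin-binding partner of A20, had log2 signals of 9.01, 9.05 and 9.04 in GPS2KO and of 9.44, 9.52 and 9.48 in WT, and fell by 0.44 (SE 0.039, adjusted p = 0.000771). Tnip3 (ABIN3) fell by 0.39 (SE 0.045, adjusted p = 0.00258), with signals of 11.79, 11.78 and 11.81 in GPS2KO and of 12.23, 12.20 and 12.11 in WT. Tax1bp1, which also carries A20 to its targets, differed by 0.11 (adjusted p = 0.277) with every GPS2KO array higher, and Tnip2 (ABIN2) differed by -0.015 (adjusted p = 0.888). Of the 17 deubiquitinases and A20 partners, 4 fell (23.5%, against 3.83% of all tested genes), 0 rose and 13 did not pass. The other falls were those of Usp2 (-0.37, limma adjusted p = 0.00347) and of Usp18 (-1.08, adjusted p = 0.0103). Usp18 encodes a protease that removes ISG15 and is itself induced by interferon. The median change of the list was -0.033, and 7 of the 17 had an unadjusted p under 0.05. The share of all tested genes at such a p was not counted, but it is at least the 6.72% called after adjustment. Counts at an unadjusted p, here and below, therefore have no share to be read against and cannot show an excess. Cyld, which cleaves chains on RIPK1 and TRAF2, differed by -0.0055 (95% confidence interval -0.10 to 0.091), and Otulin, which cleaves linear chains, by -0.12 (adjusted p = 0.0995), without overlap between the groups.

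Promoter sequence was set beside these changes for Tnfaip3, which rose, and for Traf1 and Tnip1, which fell. No rule set this choice, and the promoters of Tnfrsf1b and Tnip3, which also passed the threshold, are not shown. Each line gives the 250 bases before the most upstream start that RefSeq lists (GRCm38.p6), written 5′ to 3′ on the gene's strand, with matches to the NF-kappaB consensus of RelA and p50, on either strand, in capitals. Tnfaip3 lies on the minus strand at chr10:19015411-19015660, Traf1 on the minus strand at chr2:34961773-34962022, and Tnip1 on the minus strand at chr11:54962941-54963190.
Tnfaip3: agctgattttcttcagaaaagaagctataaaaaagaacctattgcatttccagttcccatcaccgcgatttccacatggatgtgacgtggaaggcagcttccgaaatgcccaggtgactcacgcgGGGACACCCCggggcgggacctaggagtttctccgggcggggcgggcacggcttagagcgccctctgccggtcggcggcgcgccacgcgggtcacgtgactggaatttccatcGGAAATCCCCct
Traf1: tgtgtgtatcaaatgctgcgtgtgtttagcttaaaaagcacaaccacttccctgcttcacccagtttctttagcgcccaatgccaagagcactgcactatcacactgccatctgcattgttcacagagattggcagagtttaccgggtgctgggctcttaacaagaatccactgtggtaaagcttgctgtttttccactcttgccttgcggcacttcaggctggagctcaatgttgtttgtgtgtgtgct
Tnip1: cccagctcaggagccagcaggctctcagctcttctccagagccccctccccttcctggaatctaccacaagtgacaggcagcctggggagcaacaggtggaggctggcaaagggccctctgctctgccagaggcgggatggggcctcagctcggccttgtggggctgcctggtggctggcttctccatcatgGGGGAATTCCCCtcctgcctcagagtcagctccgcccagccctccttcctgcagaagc
The Tnfaip3 window held 2 matches, which begin 125 and 12 bases before the start. RefSeq lists 2 starts for Tnfaip3, and the window of the other one, not shown, held no match. In the Tnip1 window 3 overlapping matches lay at 58, 57 and 56 bases. No match lay in the Traf1 window, which says only that the consensus is absent from these letters. Among all 32851 promoter windows of this length 7.25% held a match. Of the core genes, 8 of the 9 tested had a listed promoter, and Tnfaip3 alone held a match. That is 12.5% of these genes, against 9.51% of all tested genes with a listed promoter.

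Genes that TNF induces through NF-kappaB mostly fell where they changed. Of 26 tested, 10 fell, 1 rose and 15 did not pass (42.3% called, against 6.72% of all tested genes), and 17 of the 26 had groups that did not overlap, against 27.1%. The median change was -0.061. Nfkbie, an inhibitor of NF-kappaB, fell by 0.72 (SE 0.053, adjusted p = 0.000408) and Nfkbia, the main such inhibitor, by 0.34 (adjusted p = 0.00252). Among the subunits of the factor, Relb fell by 0.61 (adjusted p = 0.000521) and Nfkb2 by 0.40 (adjusted p = 0.00131). Icam1, an adhesion molecule, had log2 signals of 10.12, 10.08 and 10.10 in GPS2KO and of 10.59, 10.68 and 10.75 in WT, and fell by 0.57 (SE 0.049, adjusted p = 0.000685). The rise was that of Ccl2, a chemokine for monocytes, by 0.83 (SE 0.040, adjusted p = 0.000112). Leaving out 1 array left between 7 and 10 falls, with 7 without GPS2KO replicate 2, and a variance trend or the removal of dim genes gave 3 rises.

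The same consensus was counted in the promoters of these targets. Of the genes that fell, 7 had a listed promoter and 6 held a match (Cxcl2, Nfkb2, Nfkbia, Nfkbie, Sdc4 and Sod2). Of these 6 falls, Sdc4 lost its call without any 1 of the 6 arrays, Cxcl2 without GPS2KO replicates 2 or 3 or WT replicates 2 or 3, and Sod2 without GPS2KO replicate 2 (adjusted p up to 0.136, 0.0662 and 0.0534). Among those that did not pass, 8 of 13 held one, and among all tested genes with a listed promoter 9.51% did. Genes were put on this list as known NF-kappaB targets, so a high share is built into it, and the shares are given with no test.

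Of the other 26 receptors of the TNF family, 4 rose (against 2.9% of all tested genes), 4 fell (against 3.83%) and 18 did not pass, with a median change of -0.062. The rises were those of Tnfrsf26 (by 1.39, adjusted p = 0.000189), Tnfrsf23 (by 0.85, adjusted p = 0.000211) and Tnfrsf22 (by 0.82, adjusted p = 0.000434), which are neighbours on chromosome 7 and similar in sequence, so that their probes may share signal, and of the death receptor Tnfrsf21 (by 0.35, adjusted p = 0.00253). Cd40, a receptor that signals through TRAF proteins, had log2 signals of 8.39, 8.39 and 8.33 in GPS2KO and of 8.96, 8.76 and 8.78 in WT, and fell by 0.46 (SE 0.059, adjusted p = 0.00417). The death receptor Fas fell by 0.33 (adjusted p = 0.0055). Tnfrsf12a, the receptor of TWEAK, fell by 0.25 (adjusted p = 0.0316) and Tnfrsf11a, the receptor of RANKL, by 0.19 (adjusted p = 0.0271); the first lost its call without GPS2KO replicates 1 or 2 or WT replicates 2 or 3, and the second on leaving out any except WT replicate 1 (adjusted p up to 0.111 and 0.0936). Without GPS2KO replicate 1, GPS2KO replicate 2, WT replicate 2 or WT replicate 3, only Cd40 and Fas of the 4 falls passed. The list still held 3 falls without WT replicate 2, since another gene passed there.

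Other ligands of the family were mostly dim (11 of 15 tested), and 3 fell (20%, against 3.83% of all tested genes), 0 rose and 12 did not pass; 6 had an unadjusted p under 0.05, and the median was -0.051. Tnfsf14, which binds the lymphotoxin receptor, had signals of 6.07, 6.01 and 5.93 in GPS2KO and of 6.52, 6.81 and 6.65 in WT, and fell by 0.66 (SE 0.076, adjusted p = 0.00257). Tnfsf10 (TRAIL) fell by 0.72 (adjusted p = 0.00257), with both groups under the dim limit of 5.49, where background compresses a fold. Besides Ltb, these were the falls of that list, and Ltb kept its call only when the array left out was WT replicate 1 (adjusted p up to 0.0894 otherwise).

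The enzymes that build the chains showed small differences. Of 14 genes of the linear ubiquitin ligase and of ubiquitin-conjugating enzymes, 0 passed in limma, where 6.72% of all tested genes did, 1 had an unadjusted p under 0.05, and the median was 0.0040. None of the 14 was dim, so 6.72% is not a share of genes of like brightness. With dim genes left out 0 of the 14 passed, against 1962 of all 11292 genes. Whether these genes change less often than others was not tested. For the subunits of the ligase the differences were -0.12 for Rnf31 (adjusted p = 0.131), -0.048 for Sharpin and -0.045 for Rbck1. Ube2n, which encodes UBC13, differed by -0.040 (95% confidence interval -0.16 to 0.081; adjusted p = 0.725). Of 15 other TRAF and IAP genes 0 passed in limma, again beside 6.72% of all tested genes, and the median was 0.019. An unadjusted p under 0.05 was found for 3 of them, again with no share of all tested genes to set it against. The smallest p there belonged to Traf5 (0.14, adjusted p = 0.113), which passed without dim genes (adjusted p = 0.049). Of 7 TNFAIP genes, named for induction by TNF or for kinship to such a gene, 0 passed in limma, beside the same 6.72%. Of these 1, Tnfaip6, had an unadjusted p under 0.05 (0.21, limma adjusted p = 0.0548, and 0.0248 without dim genes).

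Of 18 kinases and scaffolds downstream of the chains, 1 fell, 0 rose and 17 did not pass (5.56% called, near the 6.72% of all tested genes); 4 had an unadjusted p under 0.05, and the median was -0.031. The fall was that of Ikbke, a kinase of the interferon and NF-kappaB response, by 0.38 (SE 0.043, adjusted p = 0.00248), with log2 signals of 10.26, 10.20 and 10.32 in GPS2KO and of 10.62, 10.63 and 10.65 in WT. Map3k14 (NIK), which TRAF2 and the cIAPs keep low as a protein, differed by -0.27 (adjusted p = 0.0533) and Ikbkg (NEMO), the chain-binding subunit of the kinase complex, by -0.19 (adjusted p = 0.0709). Both passed as falls after median centring (adjusted p = 0.0325 and 0.0419), under a variance trend and with dim genes left out. With Mapk8 (JNK1), which passed in the first and last of these (adjusted p = 0.0493 and 0.0299), the falls numbered 4, 3 and 4. Without GPS2KO replicate 3 or WT replicate 2 they numbered 2.

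In the death arm, 3 of 11 genes fell (27.3%, against 3.83% of all tested genes), 0 rose and 8 did not pass; 5 had an unadjusted p under 0.05, and the median was 0.0059. Zbp1, a sensor of nucleic acids that is also induced by interferon, fell by 0.69 (SE 0.065, adjusted p = 0.0011). Ripk3, the kinase of necroptosis, had log2 signals of 9.49, 9.42 and 9.38 in GPS2KO and of 9.65, 9.62 and 9.61 in WT, and fell by 0.20 (adjusted p = 0.0329). Bid, which links caspase-8 to mitochondria, fell by 0.23 (adjusted p = 0.0276). With 1 array left out, Ripk3 kept its call only where this was GPS2KO replicate 1, and Bid only where it was WT replicate 2 (adjusted p otherwise up to 0.113 and 0.0947). That left 1 fall, Zbp1, without any of the other 4 arrays. Mlkl, the pore former of necroptosis, differed by -0.13 (adjusted p = 0.102).

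**Figure D3:**
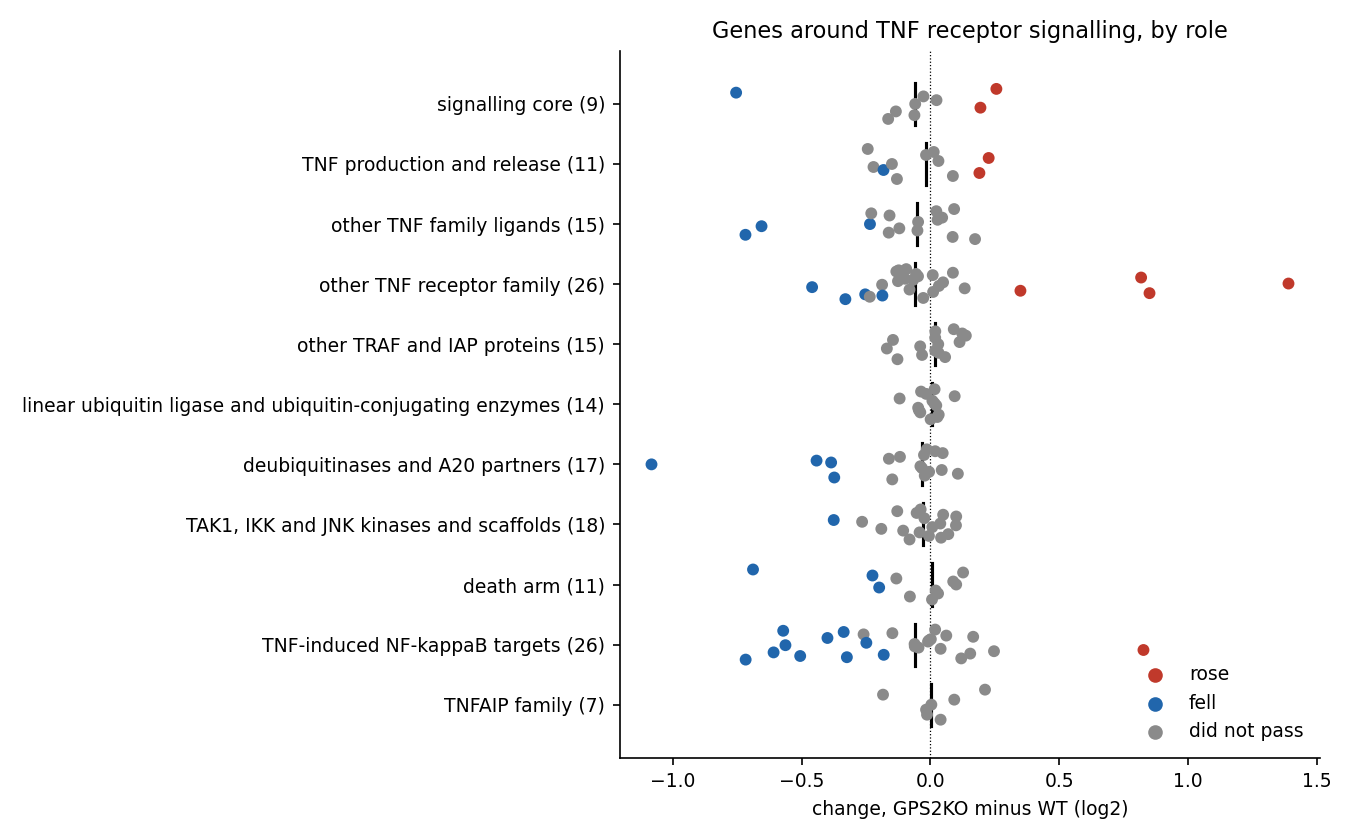
Change of every tested gene, GPS2KO minus WT on the log2 scale, in the TNF receptor core and in 10 lists of related genes, with the number tested in parentheses (points: red rose, blue fell, grey did not pass; black lines: list medians). Falls number 10 of 26 among the NF-kappaB targets and 4 of 17 among the deubiquitinases and A20 partners, against 3.83% of all tested genes.

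Across the 10 lists, 33 of 159 distinct genes passed (20.8%, against 6.72% of all tested genes), 7 as rises and 26 as falls. The core and the lists were chosen with earlier results of these data known, so high shares can come from that choice. The 7 rises include Tnfrsf22, Tnfrsf23 and Tnfrsf26, whose probes may share signal. At least 1 alternative setting ended the call of 11 of the 33. The other 22 kept theirs wherever they were tested (Tnfsf10, a dim gene, was not tested with dim genes left out). Among them were the rises of Ccl2, Tnfrsf21, Tnfrsf22, Tnfrsf23 and Tnfrsf26 and the falls of Tnip1, Tnip3, Nfkbie, Relb, Icam1, Nfkb2, Nfkbia, Cd40 and Ikbke.

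Related genes were also compared on the same arrays, since a difference between 2 genes does not move with an array's scale; these 4 pairs were chosen after their values were seen. Relative to the WT mean, Tnfrsf1b minus Tnfrsf1a was 0.19, 0.33 and 0.24 on the GPS2KO arrays and -0.031, -0.0049 and 0.036 on the WT arrays, a difference of 0.25 between the groups. For Traf1 minus Traf2 the difference was -0.62, and for Tnfaip3 minus Tnip1 it was 0.70, again without overlap. Each of these 3 had an exact 2-sided permutation p of 0.1, which is the lowest value possible with 20 ways to arrange 6 arrays, and 0.133 after adjustment over the 4 pairs. Birc3 minus Birc2 differed by -0.10 with overlap (exact permutation p = 0.2, adjusted p = 0.2).

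The tested genes whose signal followed each called gene most closely over the 6 arrays were found by Pearson correlation, given as a description since all share the split between the groups. For Traf1 they were Ttc9 (0.997), Dpep2 (0.997) and Klhl13 (0.996). Tnfaip3 was followed by Ppp1cc (0.999), Kif13a (0.997) and Fdft1 (0.996), and Tnfrsf1b by Rps24 (0.998), Lrp8 (0.993) and Ube2w (0.992).

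**Figure D4:**
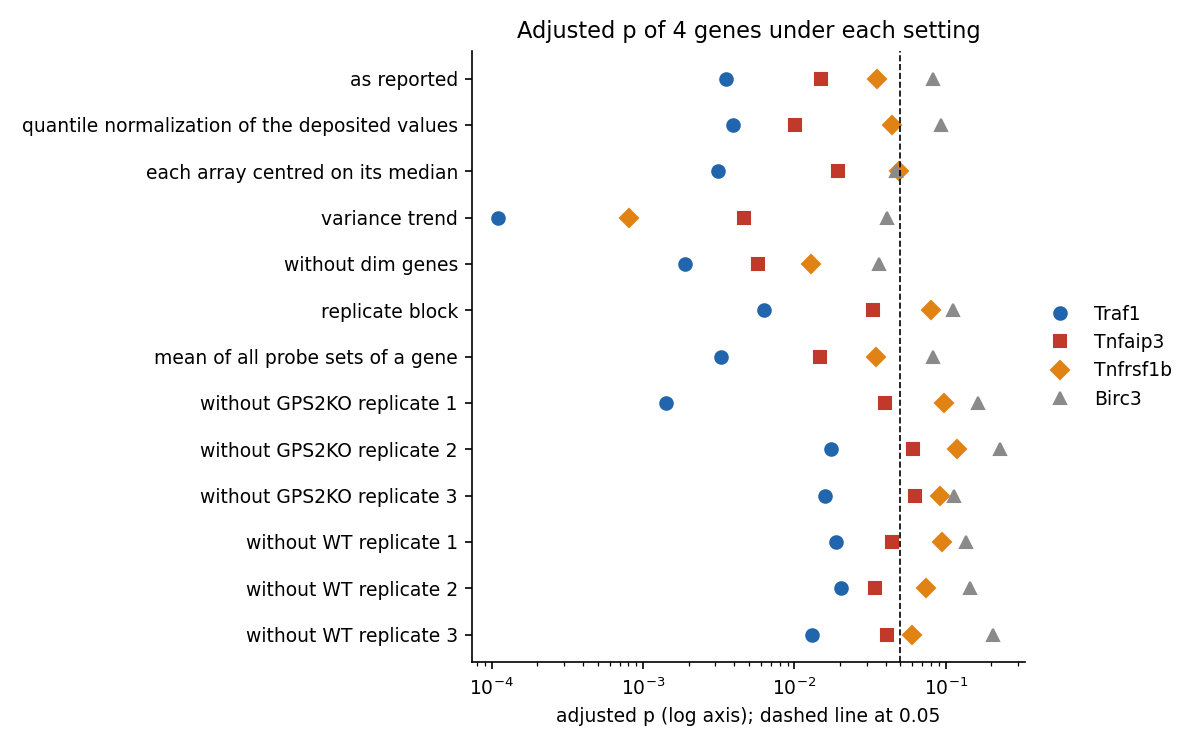
Adjusted p (log axis) of Traf1, Tnfaip3, Tnfrsf1b and Birc3 as reported and under 12 alternative settings, with a dashed line at 0.05. Traf1 lies left of the line throughout, Tnfaip3 crosses it without GPS2KO replicate 2 or 3, and Tnfrsf1b lies right of it whenever 1 array is left out.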

How the data were processed

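The deposited table held log2 intensities of each probe set on each array. According to the submitters' processing notes, RMA from oligo, an R package, was run by the authors, and neither versions nor a genome build is given in the sources used here. RMA normalizes all arrays together, which hides a shift common to most genes, and background left in dim signals compresses folds. Array medians ran from 5.57 to 5.60. Of 35556 probe sets, 21218 carried 1 symbol in GEO's platform annotation, and 21185 of these matched RefSeq (GRCm38.p6), used for names, gene order and promoters. The probe set with the highest mean stood for a gene, and 18820 genes were tested.

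Changes are GPS2KO minus WT, tested 2-sided with limma 3.58.1 (R 4.3.3; lmFit, eBayes, group as the only term) on all 6 arrays, with SE and 95% confidence intervals from that fit. The number of arrays limits the precision, and there is no read depth. The fit was checked on simulated data for GPS2KO against WT over 18820 genes: of the genes given a log2 change of 0.5 it recovered 81% (100 genes), of those given 1 or 2 it recovered 100% (50 genes each), and it called 10 unchanged genes. No change under 0.5 was simulated. Recovery at the smaller sizes seen for every core gene except Traf1 was therefore not checked.

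The members and lists were chosen with earlier results of these data known. All 10 members were named, with up to 6 genes of each list by smallest p, Gps2, and for each called member its 3 closest genes. The following were picked for naming with values known: Tnfrsf11a, Tnfrsf12a, Ube2n, Cyld, Aif1, Lta, Cxcl2, Sdc4, Sod2, Tnip2, Tax1bp1, Itch, Rnf11, Pdgfrb, Col1a1, Dcn, Cd4, Cd79b, Mertk and Itgam. Replicate numbers did not pair the arrays: correlations of same-numbered deviations from the group means were 0.0035, 0.026 and -0.0060. Alternatives were quantile normalization, median centring, a variance trend, no dim genes, a replicate block, means over probe sets, and each array left out. Means over probe sets could not alter the values of the tested core genes, which had 1 probe set each.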

Additional observations from a re-analysis of the deposited data

How the results depend on the processing

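Under the 12 alternatives, Traf1 and Gps2 kept their calls and directions, and Tnfrsf1a, Traf2 and Birc2 stayed below 0 without passing. The number of core genes that passed, 3 as reported, was 4 with dim genes left out, under a variance trend and after median centring, where Birc3 was added and 2 genes fell. It ranged from 1 to 2 with 1 array left out, with 0 to 1 rises and 1 fall. With the replicate block, 1 core gene rose: Tnfrsf1b lost its call (adjusted p = 0.0803), Tnfaip3 kept it (0.0332), and the samples share only a number, so this is no pairing of the design. Median centring turned the sign of Tnf (-0.000471), and leaving out GPS2KO replicate 3 that of Tradd (0.0014, over a range from -0.052 with 1 array left out); neither was called. Over all genes, 1265 passed (545 rises, 720 falls), against 2174 with a variance trend (926 rises, 1248 falls) and 1962 without dim genes (1154 falls). With 1 array left out 749 to 842 passed (322 to 376 rises, 419 to 503 falls), and with the replicate block 862. Median centring gave rises a share of 30.2% of all calls, against 43.1%, and moved the median change by -0.024. In the related lists, 33 genes passed (7 rises, 26 falls), with 11 rises without dim genes. With 1 array left out 23 to 28 passed, with 5 to 6 rises and 17 to 23 falls. Leaving out an array fits fewer samples. Leaving out dim genes adjusts over fewer genes and also changes the SE from the fit, which for Birc3 was 0.042, against 0.046 as reported. How much each of these adds to the counts was not tested, nor was the cause for the other settings.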
